A study of Drosophila melanogaster with 6 samples.

Results

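The cytoplasmic ribosomal protein genes are 91 of the 17753 genes in the deposited expression tables of Drosophila melanogaster eye and antennal discs. They were taken by symbol: RpL or RpS followed by a digit, and RpLP0, RpLP1, RpLP2, sta and sop (listed here under its other name, RpS2), without mitochondrial ribosomal proteins and pseudogenes. Of these, 53 belong to the large and 38 to the small subunit. RpS12 also meets the rule by name, but its current identifier was not matched in the tables and it was not analysed here. Messenger RNA was profiled in 3 libraries of eye discs and 3 libraries of antennal discs from larvae in the third instar. All came from non-transgenic yw;+;+ animals, so both tissues carry the yellow and white background. Each library pooled 30 discs that had been cut apart by hand from the joined eye-antennal disc, and polyadenylated RNA was sequenced with a stranded kit. The comparison asks how the levels of these genes differ between an eye disc, in which a front of differentiation turns dividing cells into photoreceptors, and an antennal disc of larvae at the same stage.

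The cytoplasmic ribosome joins a small subunit, which reads the messenger RNA, to a large subunit, which links amino acids into protein. Each ribosomal protein is present in a ribosome in a fixed number of copies, and in Drosophila the loss of 1 copy of many of these genes gives the Minute phenotype of slow growth and thin bristles. Growth regulators such as Myc raise the production of ribosomes in growing imaginal discs, and nucleolar assembly factors, a separate set of genes, process the ribosomal RNA and fold it with the ribosomal proteins.

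The libraries held between 17583601 and 29093991 estimated counts, and 3 counts corresponded to between 0.1 and 0.192 counts per-million (CPM, scaled by TMM), a limit set by counting error alone. The tissue labels held in the marker genes, since 4 of 4 eye disc genes (eya, so, ey, gl) were called toward eye disc, and 4 of 4 antennal genes (Dll, ss, disco, disco-r) toward antennal disc. Eye disc replicate 2 stood apart: it had the fewest counts, and 6 salivary gland glue genes held 7.88% of them against 0.0428% to 0.141% in the other libraries. Glue genes, Eig71Ee and 6 fat body genes together held 11.4% of its counts and 0.459% to 1.07% elsewhere. The labels call the 3 libraries of a tissue biological replicates. In such bulk samples, fewer cells of a type and less RNA per cell cannot be told apart.

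Ribosomal protein genes took up a large part of each library. They held 14.5%, 13.9% and 15% of all estimated counts in eye disc replicates 1, 2 and 3, and 14.3%, 15.8% and 16% in antennal disc replicates 1, 2 and 3. The mean was 14.4% ± 0.555 (SD, n = 3) in eye disc and 15.4% ± 0.938 in antennal disc. The groups overlapped, because antennal disc replicate 1 lay below 2 of the eye disc libraries. An exact two-sided permutation test of the difference gave p = 0.3 (Benjamini-Hochberg adjusted p = 0.375 over 5 summed measures). The smallest p that 3 against 3 libraries allow is 0.1, so this test could not decide whether the shares differ. With the glue, Eig71Ee and fat body genes left out of the totals, a step chosen after seeing the data, the share was 14.5%, 15.6% and 15.1% in eye disc and 14.4%, 16% and 16.1% in antennal disc. The difference, eye disc minus antennal disc, was then -0.381 percentage points against -0.972 over all counts, and it was -1.51 without antennal disc replicate 1. Large subunit counts were 1.45 ± 0.00876 times the small subunit counts in eye disc and 1.46 ± 0.0145 times in antennal disc (exact two-sided permutation test, p = 0.5, adjusted p = 0.5). The bars of summed counts by library show these shares beside those of other gene groups.

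**Figure D1:**
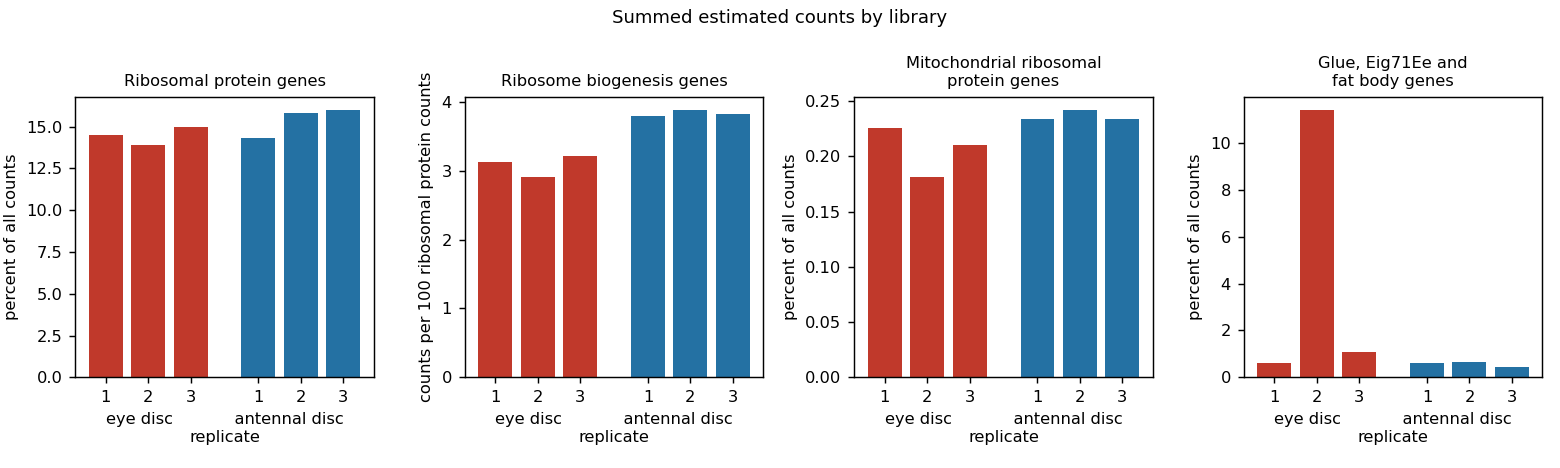
Summed estimated counts of 4 gene groups in each of the 6 libraries: ribosomal protein genes, mitochondrial ribosomal protein genes and the glue, Eig71Ee and fat body genes as a percent of all counts, and 44 ribosome biogenesis genes per 100 ribosomal protein counts. The ribosomal protein share lies between 13.9% and 16% in all libraries, the biogenesis bars of the 3 antennal disc libraries stand above those of eye disc, and the glue group reaches 11.4% in eye disc replicate 2.

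Most of the genes sat in a narrow band near the top of the transcriptome. Of the 150 genes above a mean of 1000 CPM, 73 were ribosomal protein genes, and between 55 and 62 of the 100 genes with the most counts in a library belonged to them. Another 9 lay between 10 and 1000 CPM, and 9 lay under 10 CPM. Levels of different genes were compared per kilobase of the gene's median annotated transcript, because the deposited TPM values (transcripts per-million) rest on whole gene spans with introns. On the CPM per kilobase scale the 82 genes at 10 CPM or more had a median of 2420, and 76 of them lay within 2-fold of it. The 10th and 90th percentiles were 1510 and 3330, a ratio of 2.21. The lowest was RpS15Ab at 125 CPM per kilobase and the highest was RpL41, a very short peptide of the large subunit, at 10700. RpL41 lies wholly inside the span of NaCP60E (36.8 CPM in eye disc, 47.7 CPM in antennal disc), so reads may have been shared between them in either direction.

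In counts, without the length scale, the 5 genes with the highest means were RpL3, sta, RpL41, RpL4 and RpL7A. RpL3, a large subunit protein near the site of peptide bond formation, was at 3550, 4080 and 3900 CPM in eye disc replicates 1, 2 and 3, against 3660, 4200 and 4470 CPM in antennal disc replicates 1, 2 and 3. The groups overlapped, and its log2 fold change, eye disc over antennal disc, was -0.10 ± 0.09 (SE; quasi-likelihood test of edgeR, with p adjusted by Benjamini-Hochberg to 0.482). sta (stubarista), the small subunit protein RpSA, was at 3660, 3810 and 3640 CPM against 3740, 3960 and 4160 CPM. Its libraries also overlapped, with a log2 fold change of -0.09 ± 0.06 (edgeR, adjusted p = 0.277). RpL41 gave -0.12 ± 0.08, RpL4 -0.14 ± 0.08 and RpL7A -0.11 ± 0.08 on the log2 fold change scale, with edgeR adjusted p of 0.277, 0.229 and 0.339. The plot of levels by library shows the whole set in the order of its mean level.

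**Figure D2:**
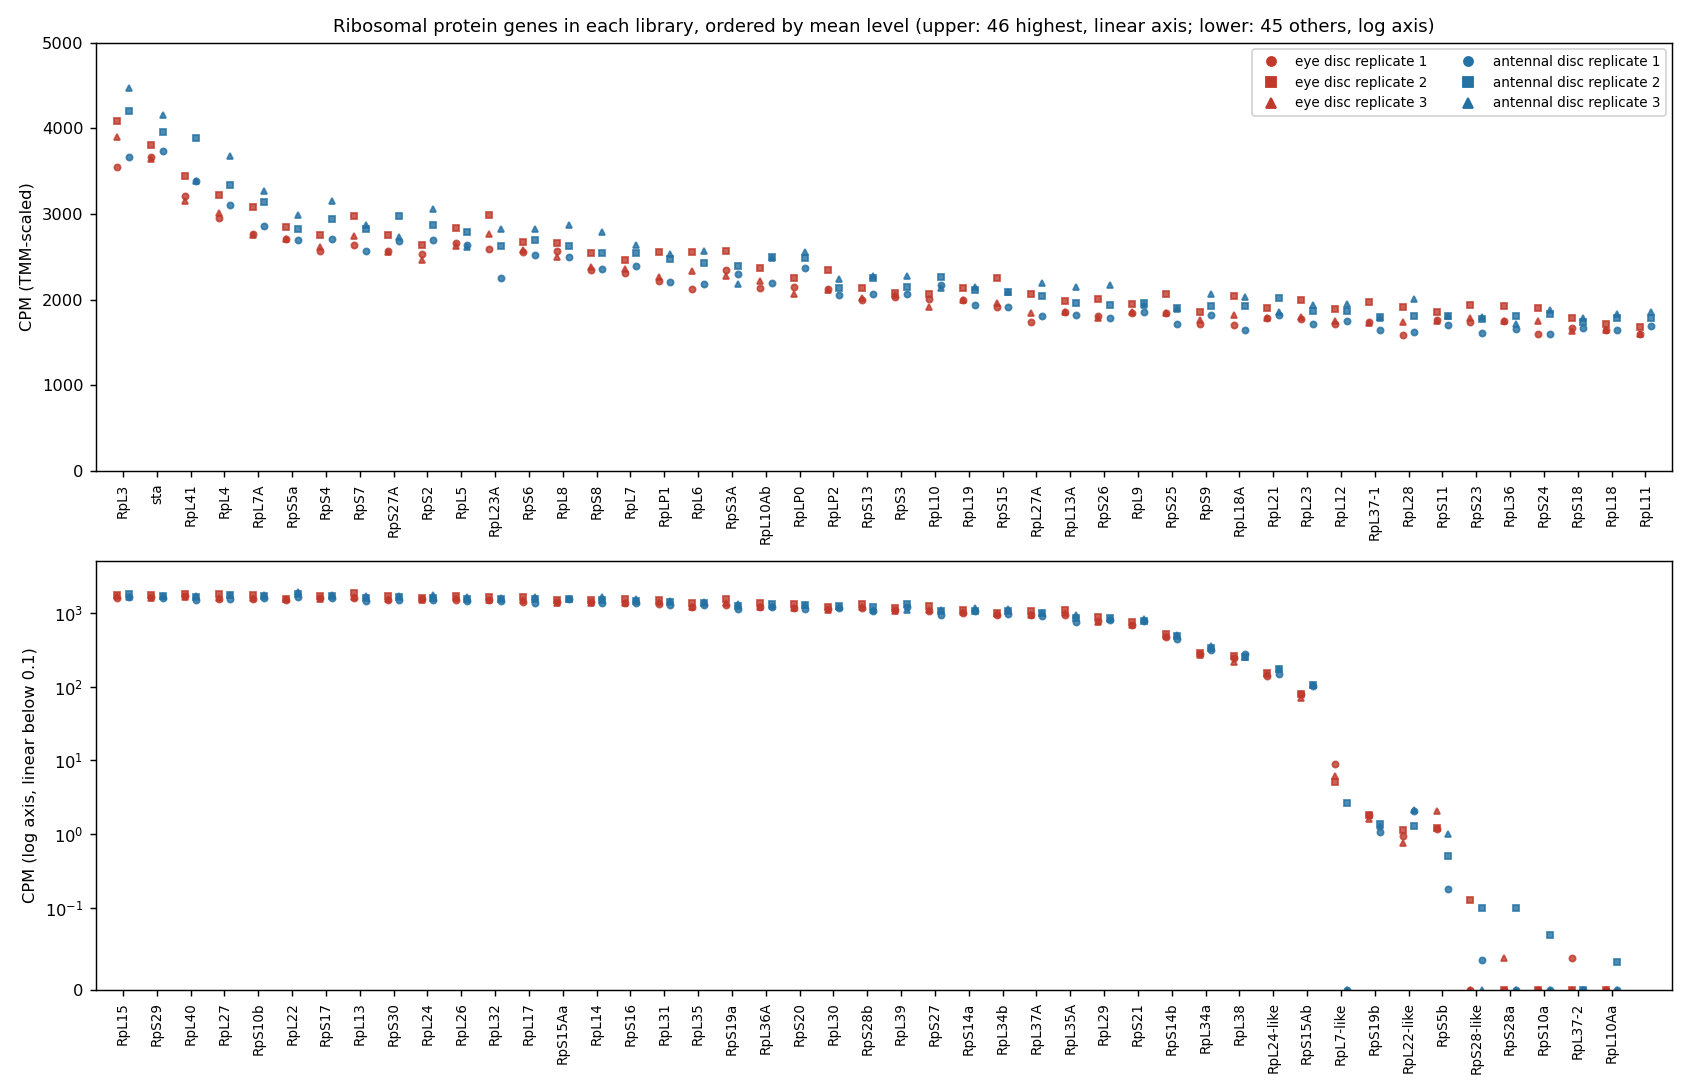
Level of each of the 91 ribosomal protein genes in each of the 6 libraries, in TMM-scaled CPM (upper panel linear, lower panel logarithmic above 0.1 CPM), with eye disc in red and antennal disc in blue and a marker shape per replicate. Genes at 1000 CPM or more form a shallow slope with overlapping tissues, and 9 genes under 10 CPM drop away at the right of the lower panel.

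Between the tissues, almost no ribosomal protein gene was called as different. Of the 86 genes that passed the filter on low counts, 0 were called higher in eye disc and 2 were called higher in antennal disc (edgeR, adjusted p under 0.05 over 9901 genes). Over all genes tested, 14.6% were called higher in eye disc and 11.7% higher in antennal disc, above the shares of 0% and 2.33% among the tested ribosomal protein genes. At an unadjusted p under 0.05 edgeR gave 1 gene toward eye disc and 8 toward antennal disc, where 20.9% and 18.6% of all genes tested passed that threshold. DESeq2 called 1 and 9 of them, where it called 18.7% and 15.5% of all genes it tested. The edgeR fit with the replicate number as a block called 1 and 3, where it called 16.3% and 14.1% of all genes tested.

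The data bounded the differences closely. Among the 82 genes at 10 CPM or more, the log2 fold change ran from -0.47 to 0.25, with quartiles at -0.10 and 0.01. It lay within 0.1 of equality for 58 genes and within 0.2 for 78. The 95% interval of the difference stayed within 1.5-fold either way for 81 of the 82, the exception being RpS15Ab. The median standard error was 0.07 for these genes and 0.11 for all genes tested. The median log2 fold change was -0.04 over the 86 tested genes and 0.00 over all genes tested, with 58 of the 82 genes below 0 and 24 above. It was -0.06 for the large and -0.04 for the small subunit.

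**Figure D3:**
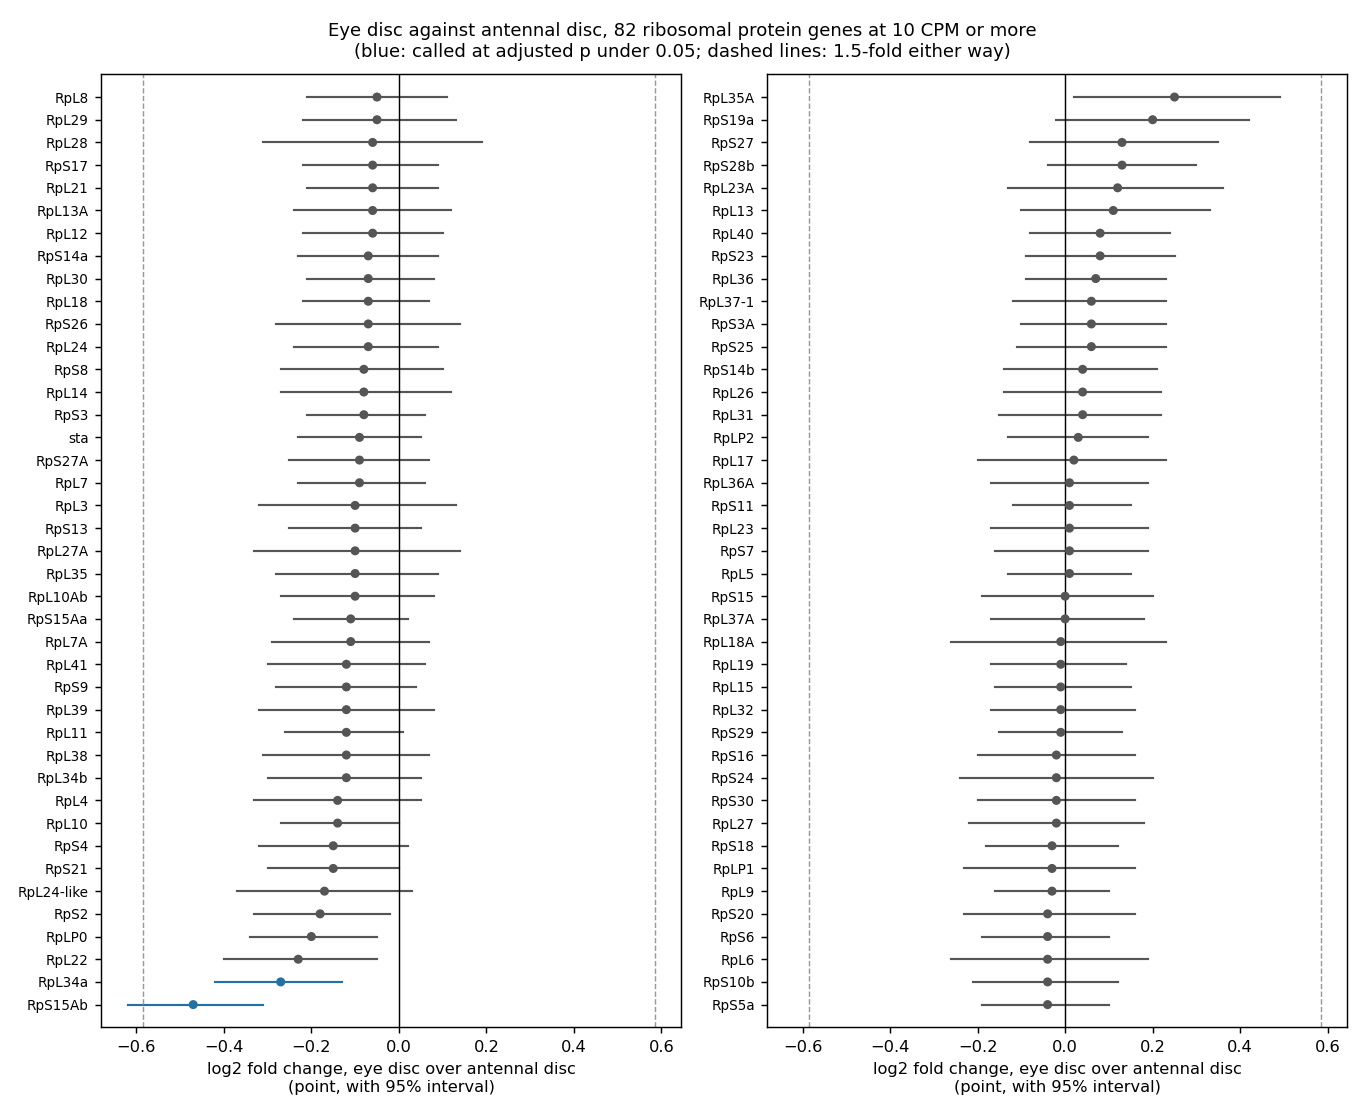
Log2 fold change, eye disc over antennal disc, with its 95% interval for the 82 ribosomal protein genes at 10 CPM or more, sorted by value; blue marks the 2 genes called higher in antennal disc and dashed lines mark 1.5-fold. The points lie between -0.47 and 0.25, and 81 intervals stay inside the dashed lines.

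Medians by chromosome lay close together. Genes on the X chromosome (15 at 10 CPM or more) had a median log2 fold change of -0.04, and those on the autosomal arms 2L, 2R, 3L and 3R (17, 18, 13 and 18 genes) had -0.07, -0.02, -0.07 and -0.04. The only gene on chromosome 4, RpS3A, named after its values were seen, had 0.06 ± 0.07 (edgeR, adjusted p = 0.546). Across the 82 genes, which are not independent and share the same libraries, Spearman's rho of the log2 fold change was -0.17 with transcript length and -0.10 with mean CPM. The spans of 48 of the 91 genes overlap another indexed gene, and 28 hold 72 small nucleolar RNA genes in all. The 40 tested genes that overlap none had a median of -0.03, with both called genes among them.

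The most even genes were RpL37A, RpS15, RpL15 and RpL32. RpL37A was at 939, 1050 and 926 CPM in eye disc against 915, 985 and 1010 CPM in antennal disc. RpS15 was at 1910, 2250 and 1960 CPM against 1910, 2090 and 2090 CPM. Both had a log2 fold change of 0.00, with 95% intervals that stayed within 1.5-fold, and RpL15 and RpL32 each had -0.01.

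The clearest difference was in RpS15Ab, the less abundant of a pair of genes for the small subunit protein RpS15A. This gene (FBgn0033555, 2R, 10821676 to 10822399 in dm6) has a single exon and overlaps no other indexed gene. It was at 79.2, 78.7 and 70.2 CPM in eye disc replicates 1, 2 and 3, against 101, 107 and 107 CPM in antennal disc replicates 1, 2 and 3. All 3 antennal disc libraries lay above all 3 eye disc libraries. The means were 76.0 ± 5.04 CPM (SD, n = 3) and 105 ± 3.76 CPM, and the log2 fold change was -0.47 ± 0.07 (SE; edgeR, adjusted p = 0.00347). It stayed called when any single library was left out.

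RpL34a, the less abundant of a pair of genes for the large subunit protein RpL34, was the other called gene (FBgn0039406, 3R, 26058420 to 26059267). It was at 274, 285 and 269 CPM in eye disc against 313, 336 and 353 CPM in antennal disc. The groups did not overlap, and the log2 fold change was -0.27 ± 0.06 (edgeR, adjusted p = 0.0202). Without antennal disc replicate 2 its adjusted p was 0.0702, and without antennal disc replicate 3 it was 0.0747.

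Several abundant genes came near the threshold. RpL22, a large subunit protein with a long extension in Drosophila, was at 1510, 1530 and 1540 CPM in eye disc against 1630, 1800 and 1940 CPM in antennal disc. Its groups did not overlap, but its log2 fold change of -0.23 ± 0.07 missed the threshold (edgeR, adjusted p = 0.062). With the replicate block it was called (edgeR, adjusted p = 0.0458), and so it was without antennal disc replicate 1 (0.0222). RpL35A, a large subunit protein named here after its values were seen, was the gene with the largest difference toward eye disc at 10 CPM or more. It was at 930, 1110 and 1000 CPM in eye disc against 764, 860 and 927 CPM in antennal disc. The groups were apart by a small margin, between the lowest eye disc and the highest antennal disc library. Its log2 fold change was 0.25 ± 0.10 (edgeR, adjusted p = 0.105, and 0.0416 with the replicate block).

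The P stalk, which recruits the factors that drive translation through its cycle, is built from RpLP0, RpLP1 and RpLP2. RpLP0, its base, was at 2150, 2250 and 2070 CPM in eye disc against 2370, 2480 and 2560 CPM in antennal disc. The libraries of the tissues did not overlap, and the log2 fold change was -0.20 ± 0.06 (edgeR, adjusted p = 0.0528). Without eye disc replicate 2 the adjusted p was 0.0499, and without antennal disc replicate 1 it was 0.0472. It was 0.0481 in edgeR with DESeq2 size factors and 0.0416 with TMM factors taken without ribosomal protein genes. DESeq2 gave 0.000849, and RpLP0 was called in no other fit. Its partners RpLP1 and RpLP2 overlapped between tissues, with log2 fold changes of -0.03 ± 0.08 and 0.03 ± 0.07 (edgeR, adjusted p = 0.789 and 0.746). RpS2, known in Drosophila as string of pearls for its oogenesis phenotype, was at 2530, 2640 and 2460 CPM against 2700, 2870 and 3060 CPM. Its groups were apart, with a log2 fold change of -0.18 ± 0.07 (edgeR, adjusted p = 0.0959).

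In all, the 3 libraries of a tissue lay wholly apart from those of the other in 4 tested genes toward eye disc and 10 toward antennal disc. Over all genes tested, the libraries were apart in 23.4% toward eye disc and 22.2% toward antennal disc. Among the 82 genes at 10 CPM or more they were apart in 1 gene toward eye disc and in 9 toward antennal disc.

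Drosophila carries more than 1 gene for several ribosomal proteins, and the symbols hold 12 such sets with 25 genes. In 8 sets a single copy held nearly all of the counts: RpS5a, RpS10b, RpS19a, RpS28b, RpL7, RpL10Ab, RpL22 and RpL37-1 each had 99.6% or more of their set in every library. Near-identical copies can exchange reads, and how the authors' tool divided them is uncertain for every set. In the other 4 sets both copies were at 10 CPM or more. RpL34a made up 22.5%, 22.0% and 21.9% of the RpL34 counts in eye disc and 24.2%, 24.2% and 23.6% in antennal disc. RpS15Ab made up 5.30%, 4.96% and 4.85% of the RpS15A counts in eye disc and 6.17%, 6.41% and 6.47% in antennal disc. Both minor copies thus had a smaller share in every eye disc library than in any antennal disc library.

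RpS14b, from a tandem pair of nearly identical genes, was at 31.8%, 32.3% and 31.9% of its set in eye disc and 29.2%, 31.8% and 30.3% in antennal disc. Its highest antennal disc and lowest eye disc libraries differed by less than the printed digits. RpL24-like, the counterpart of a yeast factor that acts in the assembly of the large subunit, made up 8.68% ± 0.423 of the sum with RpL24 in eye disc and 9.22% ± 0.453 in antennal disc. The exact two-sided permutation test gave p = 0.1 for RpL34a, RpS15Ab and RpS14b, the smallest that 3 against 3 libraries allow, and p = 0.2 for RpL24-like. Adjusted over the 4 sets these were 0.133 for each of the first 3 and 0.2.

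**Figure D4:**
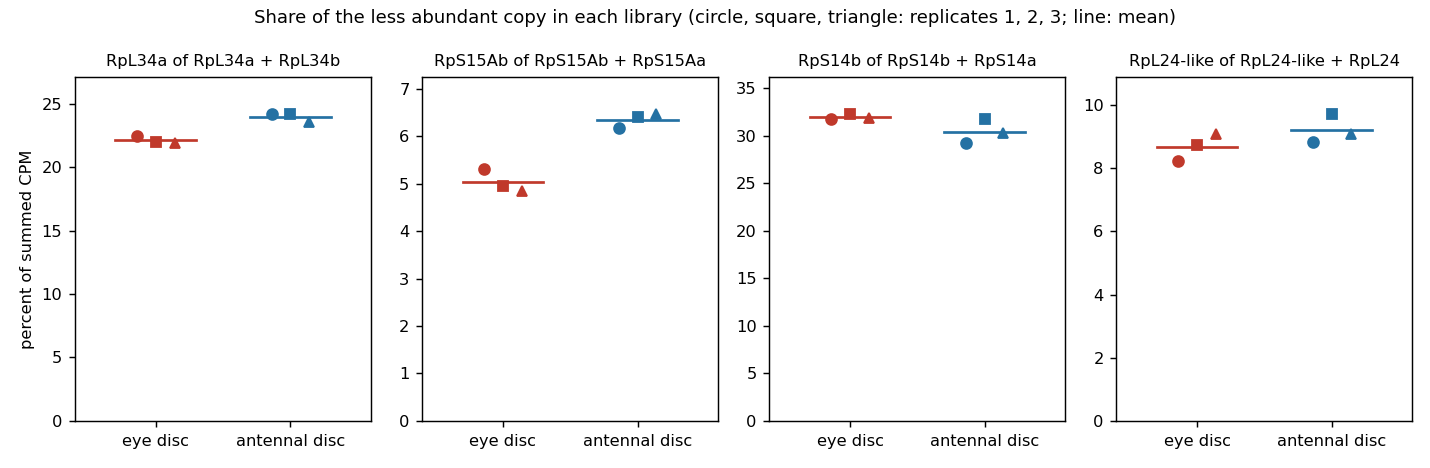
Share of the less abundant copy in the summed CPM of its set, in percent with axes from 0, in each eye disc (red) and antennal disc (blue) library; lines are means of 3. RpL34a and RpS15Ab lie lower in eye disc, RpS14b lies higher by a narrow margin, and RpL24-like overlaps.

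Summed over copies, the differences of RpS15A and RpL34 were smaller. With each set counted as a single gene, edgeR called 0 of the 78 ribosomal proteins in either direction. At an unadjusted p under 0.05 there was 1 toward eye disc and 5 toward antennal disc. With copies counted apart, edgeR called 14.6% of all genes tested toward eye disc and 11.7% toward antennal disc. At an unadjusted p under 0.05 these shares were 20.9% and 18.6%. The RpS15A set had a log2 fold change of -0.13 ± 0.06 (edgeR, adjusted p = 0.133), against -0.47 for RpS15Ab alone and -0.11 for the major copy RpS15Aa. The RpL34 set had -0.16 ± 0.07 (edgeR, adjusted p = 0.143), and its major copy RpL34b had -0.12 ± 0.07. The RpL22 set stayed at -0.23 ± 0.07 (edgeR, adjusted p = 0.0613). The RpS19 set was the most shifted toward eye disc at 0.20 ± 0.09 (edgeR, adjusted p = 0.159), a value set by RpS19a, which was at 1300, 1540 and 1370 CPM in eye disc against 1120, 1240 and 1320 CPM in antennal disc.

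Several copies with little or no signal are known from the germ line. RpS5b, RpS19b and RpL22-like, which in Drosophila are prominent in ovary or testis, were read at about 1 or 2 CPM. RpS19b was at 1.79, 1.79 and 1.61 CPM in eye disc against 1.07, 1.37 and 1.30 CPM in antennal disc. RpS5b was at 1.18, 1.21 and 2.07 CPM against 0.179, 0.501 and 0.997 CPM. RpL22-like was at 0.953, 1.15 and 0.766 CPM against 2.08, 1.30 and 2.15 CPM. The libraries of the tissues were apart in each of the 3 genes, but none was called (edgeR, adjusted p = 0.299, 0.154 and 0.108).

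RpL7-like, related to a yeast assembly factor of the large subunit, was at 9.03, 5.05 and 6.09 CPM in eye disc against 0, 2.67 and 0 CPM in antennal disc. Exons of CG34164 cover 98.8% of its exons, and the sum of both genes was 97.5 CPM in eye disc against 113 CPM in antennal disc, with overlapping libraries. The division of reads between them is uncertain, and RpL7-like was not called (edgeR, adjusted p = 0.265), though it was without antennal disc replicate 2 (adjusted p = 0.00484). The 5 genes that did not pass the filter had at most 6 counts over all libraries. RpS28-like had 6 counts, RpS28a 4, RpS10a 1.6, RpL37-2 and RpL10Aa 1 each, all at or near the floor, so no difference was detectable at this depth.

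The genes moved together from library to library, by more than the median difference between tissues. The median deviation of the 82 genes from their own mean over all libraries was -0.07, 0.06 and -0.06 on the log2 scale in eye disc replicates 1, 2 and 3. It was -0.07, 0.04 and 0.09 in antennal disc replicates 1, 2 and 3. Eye disc replicate 2 was the highest eye disc library for 80 of the 82 genes. Antennal disc replicate 1 was the lowest antennal disc library for 76, and replicate 3 the highest for 63. Without eye disc replicate 2 the median log2 fold change of the tested genes was -0.08, without antennal disc replicate 1 it was -0.10, and without antennal disc replicate 3 it was -0.01. The glue genes of eye disc replicate 2 lie beside its high values, and their part in the result was not tested.

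Scaled to the summed counts of the ribosomal protein genes themselves, a step chosen after seeing the data, the composition of the set could be compared. RpS15Ab remained lower in eye disc at a log2 fold change of -0.42 ± 0.08 (edgeR, adjusted p = 0.0101). RpL35A, at 0.30 ± 0.07, and RpS19a, at 0.24 ± 0.06, were called higher in eye disc on this scale (adjusted p = 0.0274 and 0.0399). RpL34a, at -0.23 ± 0.07, was not called (adjusted p = 0.0718). The share of all genes called on this scale is not given here, so these calls cannot be set against it.

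Most genes of a ribosome biogenesis list were higher in antennal disc. In this list of 46 genes, taken as nucleolar and assembly factors, edgeR called 38 toward antennal disc and 1 toward eye disc. These shares were 82.6% and 2.17%, against 11.7% and 14.6% of all genes tested. It left 7 uncalled, and the median log2 fold change was -0.39. Of 44 list genes that are no ribosomal protein gene by symbol, 42 lay below -0.14, the 10th percentile of the 82 ribosomal protein genes. Gar1, a protein of the snoRNA particles that modify ribosomal RNA, was at 48.9, 50.4 and 52.7 CPM in eye disc against 75.8, 76.9 and 72.8 CPM in antennal disc. Its groups were far apart, with a log2 fold change of -0.57 ± 0.06 (edgeR, adjusted p = 0.000849). CG8545 was at 124 ± 3.04 and 180 ± 8.82 CPM (-0.54 ± 0.06, adjusted p = 0.000955), and Nopp140, a nucleolar scaffold protein, was at 213 ± 3.32 and 304 ± 14.8 CPM (-0.52 ± 0.05, adjusted p = 0.00105).

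The gene higher in eye disc was pes, at 31.9, 30.8 and 28.9 CPM against 22.3, 20.3 and 23.6 CPM (0.47 ± 0.08, edgeR, adjusted p = 0.00803). In Drosophila this symbol names peste, a scavenger receptor, and pes, Rrp1 and noi entered the list by symbol though they are known for other functions. Without these 3 and the ribosomal protein genes, edgeR called 37 of 41 toward antennal disc and 0 toward eye disc, with a median of -0.42. In the full list only pes was called toward eye disc, so leaving it out fixed that 0 in advance. In the reduced list DESeq2 also called 0 toward eye disc, and 0 had an unadjusted edgeR p under 0.05 that way. The list was chosen with earlier results of these data known. Among the 19 list genes that overlap no other gene, 14 were called toward antennal disc and 1 toward eye disc (73.7% and 5.26%). Over all tested genes that overlap no other, these shares were 12.2% and 15.4%. The antennal count over the 46 was 23 without antennal disc replicate 2, 24 without replicate 3, and 1 in limma on log2(TPM + 1).

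Set against the ribosomal protein genes within each library, the 44 list genes that are no ribosomal protein gene held 3.12, 2.91 and 3.21 counts per 100 ribosomal protein counts in eye disc. In antennal disc it held 3.79, 3.88 and 3.82. Every antennal disc library was above every eye disc library. The exact two-sided permutation test gave p = 0.1, the smallest that 3 against 3 libraries allow (adjusted p = 0.167 over 5 summed measures). Markers of cell types moved beside this ratio. Neuron markers were called higher in eye disc in 5 of 6 genes, and all 6 had log2 fold changes above 0. Their summed levels were 538 to 937 CPM against 81.7 to 92.4 CPM. Glia markers were called higher in eye disc in 5 of 5, at 279 to 329 against 90.7 to 103 CPM. Hemocyte markers were called higher there in 4 of 6, with all 6 above 0, at 514 to 694 against 268 to 370 CPM. Of 6 proliferation markers, 4 were called toward antennal disc and 1 toward eye disc, and 5 had log2 fold changes below 0. Their summed levels were 1230 to 1330 CPM in eye disc and 1150 to 1280 CPM in antennal disc. These sums include stg, the gene called toward eye disc, at 346 ± 20 against 84.5 ± 12 CPM, so they do not follow the other markers. Of 6 muscle markers, 1 was called toward antennal disc, and all 6 had log2 fold changes below 0. Their sums were 144 to 529 CPM in eye disc against 566 to 776 CPM in antennal disc. No fat body marker of 6 was called, though all 6 had log2 fold changes above 0. Their sums were 5510 to 26200 CPM in eye disc against 3500 to 5500 CPM in antennal disc, apart by a small margin. No marker was at 0 in all libraries, and the part of cell makeup in these results was not tested.

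**Figure D5:**
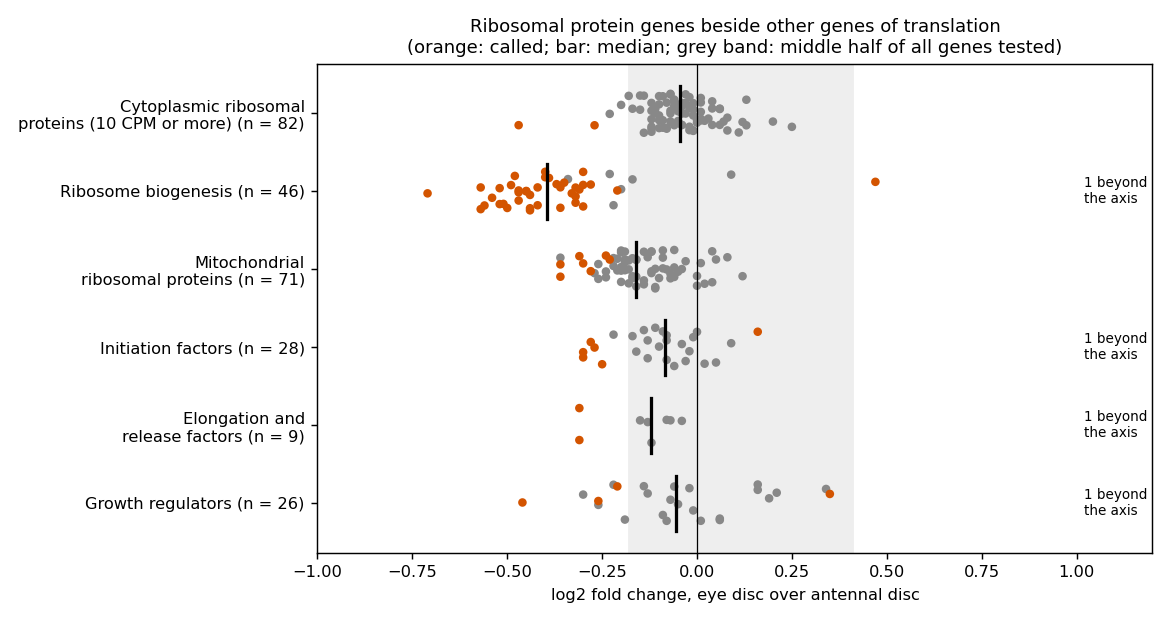
Log2 fold change, eye disc over antennal disc, of single genes in 6 groups: ribosomal protein genes at 10 CPM or more and 5 lists of other translation and growth genes. Orange points were called, bars are medians and the grey band spans the quartiles of all genes tested; the ribosomal protein genes cluster around -0.05 and the biogenesis genes around -0.39.

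The mitochondrial ribosome, encoded by its own set of nuclear genes, gave 7 of 71 genes toward antennal disc and 0 toward eye disc (edgeR; 0 in DESeq2 and 0 at an unadjusted p under 0.05), with a median log2 fold change of -0.16. The antennal share of 9.86% was below the 11.7% of all genes tested. Yet the log2 fold change was below 0 for 63 of the 71, against 4897 of all 9901 genes tested. The libraries were wholly apart toward antennal disc in 32 of the 71 and toward eye disc in 0. Over all genes tested these shares were 22.2% and 23.4%. The genes with the smallest adjusted p were mRpS30 at -0.31 ± 0.06, mRpL1 at -0.30 ± 0.06 and mRpL15 at -0.24 ± 0.05 (edgeR, adjusted p = 0.0103, 0.0162 and 0.0226). The calls of mRpL1 and mRpL15 were lost without antennal disc replicate 2 or 3, and that of mRpL15 also without eye disc replicate 3. The count was 1 without antennal disc replicate 2 or 3, 2 without eye disc replicate 3, 4 without eye disc replicate 2 or antennal disc replicate 1, and 17 without eye disc replicate 1. Their share of counts was 0.205% ± 0.0228 in eye disc and 0.237% ± 0.00491 in antennal disc.

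Of 9 elongation and release factors, 1 was called toward eye disc and 2 toward antennal disc (11.1% and 22.2%, against 14.6% and 11.7% of all genes tested), with a median of -0.12. eEF1alpha2, the form of the tRNA-delivering factor known from neurons and muscle, was at 211, 146 and 332 CPM in eye disc against 16.8, 18.1 and 15.2 CPM in antennal disc (3.78 ± 0.34, edgeR, adjusted p = 0.000959). The general form eEF1alpha1 overlapped between tissues at 12100 ± 1450 and 12400 ± 652 CPM (-0.04 ± 0.09, adjusted p = 0.787). eEF1delta and eRF3 were both at -0.31 (edgeR, adjusted p = 0.0316 and 0.0473). Both calls were lost without eye disc replicate 2 or 3 or any antennal disc library, and that of eRF3 also without eye disc replicate 1.

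Of 28 initiation factors, 2 were called toward eye disc and 5 toward antennal disc (7.14% and 17.9%), with a median of -0.09. eIF4G2 was at 41.4, 8.94 and 46.8 CPM in eye disc against 0 in the 3 antennal disc libraries (edgeR, adjusted p = 0.0191, and 0.0737 without eye disc replicate 3). Its eye disc mean was 281-fold above a floor of 3 counts per library. eIF4G2 overlaps another gene, so the division of reads is uncertain and this fold may not be a lower bound. eIF3l had 0.16 ± 0.05 (edgeR, adjusted p = 0.0467), a call lost when any library was left out, between 0.0914 and 0.169. eIF5B (-0.30 ± 0.06), eIF4H1 (-0.27 ± 0.05) and eIF2gamma (-0.28 ± 0.05) were lower in eye disc (edgeR, adjusted p = 0.0107, 0.0114 and 0.0124), the latter calls being lost without antennal disc replicate 3. The antennal count was 3 without eye disc replicate 3 or antennal disc replicate 2, and 1 without antennal disc replicate 3.

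Among 26 regulators of growth and of ribosomal genes, 1 was called toward eye disc and 3 toward antennal disc, with a median of -0.06. These shares, 3.85% and 11.5%, were below and close to the 14.6% and 11.7% of all genes tested. CycD, the cyclin partner of Cdk4 in driving growth, was at 83.9 ± 1.75 CPM in eye disc against 65.9 ± 0.719 CPM in antennal disc (0.35 ± 0.05, edgeR, adjusted p = 0.00306). Cdk4 itself was at 72.2 ± 6.35 and 99.5 ± 2.51 CPM (-0.46 ± 0.07, adjusted p = 0.00549), in the opposite direction. S6k, the kinase of the small subunit protein RpS6, had -0.26 ± 0.05, and Tif-IA, a factor of ribosomal RNA transcription, had -0.21 ± 0.05 (edgeR, adjusted p = 0.0133 and 0.0173). Both of these calls were lost without antennal disc replicate 2 or 3, leaving 1 antennal gene in each case, and without eye disc replicate 3 the list held 6. RpS6 was at 2550, 2670 and 2580 CPM in eye disc against 2520, 2690 and 2820 CPM in antennal disc, with a log2 fold change of -0.04 ± 0.06 (adjusted p = 0.646).

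Myc, the transcription factor that promotes growth and ribosome production, was at 122, 143 and 159 CPM in eye disc against 164, 179 and 178 CPM in antennal disc. The groups did not overlap, but the log2 fold change of -0.30 ± 0.10 was not called (edgeR, adjusted p = 0.0783). It was called with the replicate block (adjusted p = 0.0254), where the list held 2 genes toward eye disc and 5 toward antennal disc, and without eye disc replicate 3 (adjusted p = 0.0289).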

How the data were processed

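The authors deposited estimated counts and TPM (transcripts per-million) per gene, with kallisto's columns per the file headers. The submitters' processing notes name dm6, kallisto, FastQC and bedtools; which versions, strand setting and annotation they used is not given in the sources used here. For 90 of the 91 genes the length column equals the whole gene span, introns included, so overlapping genes can share reads, in either direction and on either strand. TPM per library was used only as an alternative. Deposited region files repeat the TPM and were not used. Symbols and exons came from an annotation of the same build.

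Counts were rounded to whole numbers, filtered with filterByExpr and scaled by TMM. Tissues were compared with edgeR 4.0.16 (quasi-likelihood, robust, no covariates, R 4.3.3) and Benjamini-Hochberg adjustment over 9901 genes, called at an adjusted p under 0.05. CPM are means ± SD (n = 3). The SE is the absolute log2 fold change divided by the square root of F. Alternatives used DESeq2 1.42.0 and limma 3.58.1 on log2(TPM + 1). Exact permutation tests used scipy 1.17.1. The steps were tested on simulated counts.

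Libraries of equal replicate number deviated together (correlations 0.415, 0.308 and 0.242 over all genes tested). The number was used only in alternatives, as a block in edgeR and in sign flips of the summed share. The main fit and the exact permutation tests did not pair libraries. Over the 86 tested ribosomal protein genes the same correlations were -0.397, -0.726 and 0.465. Libraries of unequal number gave between -0.86 and 0.839, so these genes alone do not show a pairing. Pairs within a tissue differed beyond sampling noise (chi-square per degree of freedom of 16 to 352). Members and gene lists were chosen with earlier results of these data known, and no gene list was tested as a set. Named by rule were the called genes, the 5 highest and 4 most even, every paralog, the P stalk, sta, RpS2, genes failing the filter, and up to 3 called genes per direction and list, and Myc.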

Additional observations from a re-analysis of the deposited data

How the results depend on the processing

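The count of ribosomal protein genes called higher in eye disc, 0 as reported, was 1 in DESeq2, 1 in limma on log2(TPM + 1), 1 with the replicate block and 2 when scaled to the genes' own total. The count higher in antennal disc, 2 as reported, was 9 in DESeq2, 0 in limma, 3 with the replicate block, 1 when scaled to the own total and 0 with paralog sets summed. With a single library left out, these counts ranged from 0 to 1 and from 1 to 4, respectively (4 without antennal disc replicate 1, 1 without antennal disc replicate 2 or 3; the eye disc gene, RpL7-like, appeared without antennal disc replicate 2). DESeq2 called 18.7% of all genes it tested toward eye disc and 15.5% toward antennal disc. The replicate block gave 16.3% and 14.1%. Such shares are not given here for the other alternatives, so their counts cannot be set against them. The median log2 fold change of the ribosomal protein genes was -0.25 in limma, where the median of all genes was -0.18. Eye disc replicate 2 held 19.8% of TPM in these genes against 29.4% to 32.2% elsewhere. In the other fits the median lay between -0.10 and 0.00. RpS15Ab was called in every edgeR and DESeq2 fit that held it as a gene of its own, and missed the threshold in limma (-0.66, adjusted p = 0.148); RpL34a missed it there (0.357), without antennal disc replicates 2 or 3 and on the own-total scale. Of the list genes, eIF3l changed sign in limma (-0.05). The causes were not tested. Of 828 values of 53 named genes under the alternatives, 738 kept their direction or had no call in either fit, 73 lost a call, 16 gained one and 1 reversed. Block values that changed a call stand beside RpL22, RpL35A and Myc. The difference in summed share, -0.972 percentage points, was -4.35 as a share of TPM, -0.362 over genes overlapping no other, and -1.51 to -0.658 with a library left out. Pairing by replicate number cannot move it, and sign flips of the paired differences gave an exact p = 0.5, with 0.25 the smallest possible. Members under 10 CPM are limited by depth, with a floor of up to 0.192 CPM.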
